A study of Mus musculus with 6 samples.

Results

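The 10 genes described here act in the engulfment of dying germ cells, and were taken by gene name from a table of read counts for 28262 genes. All 10 were listed in the table and all 10 passed the filter on low counts, as did 14919 genes in all. Sertoli cells, the somatic cells that nurse germ cells, were purified from C57BL/6 mice at 20 days of age, and RNA-seq of their total RNA gave 3 libraries per genotype. The control cells were Pa1F/F (labelled PA1flox/flox), in which both *Pa1* alleles carry loxP sites and no Cre was given. The knockout cells were Amh-pa1-/- (labelled PA1-/-), in which an *Amh*-cre transgene, active in Sertoli cells of the testis, cuts the same floxed alleles. All cells were untreated and were cultured after purification, and germ cells that did not attach were rinsed off. PA1 is a nuclear protein of the MLL3/4 histone methyltransferase complex, and the study asked which genes depend on it in Sertoli cells. *Pa1* was not analysed here, and each genotype is therefore taken from the labels.

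Many germ cells that begin spermatogenesis die, and Sertoli cells clear their remains together with the residual bodies shed by spermatids. The dying cell exposes phosphatidylserine on its surface, which is bound either directly by receptors or through secreted bridging proteins. GAS6 and protein S (*Pros1*) bridge phosphatidylserine to the TAM receptor tyrosine kinases TYRO3, AXL and MERTK, and MFG-E8 bridges it to integrins of the alpha v family. CD36 is a scavenger receptor that binds oxidised lipids on the dying cell. Inside the engulfing cell, ELMO1 and DOCK1 together form an exchange factor that activates the small GTPase RAC1 and so drives actin around the target, while GULP1 is an adaptor that binds the tail of the receptor LRP1.

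The libraries held between 13203757 and 16231443 counts on genes, so that 3 counts, taken here as the floor that a count of 0 allows, stood at between 0.185 and 0.230 CPM (counts scaled to the size of the library). Replicates of a genotype were unevenly spaced. The root mean square difference in log2 CPM was 0.267 between control replicates 1 and 3 and at least 0.470 in the other control pairs, and it was 0.285 between knockout replicates 1 and 2 and at least 0.563 in the other knockout pairs. Control replicate 2 and knockout replicate 3 thus stood apart within their genotypes. The labels do not say whether replicates were separate animals, so p-values measure only the spread between these libraries. The Sertoli cell markers *Sox9* and *Wt1* had at least 3166 and 4484 counts in every library.

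At an adjusted p-value under 0.05 (edgeR's quasi-likelihood test, Benjamini-Hochberg adjustment over all tested genes), 4 of the 10 engulfment genes had lower and 1 had higher levels in knockout cells. *Elmo1* and *Cd36* fell by the largest factors, *Mertk* and *Gas6* fell by smaller ones, and *Mfge8* rose. *Axl*, *Tyro3*, *Pros1*, *Dock1* and *Gulp1* did not pass the test. Among all tested genes 17.1% were lower and 18.2% were higher by the same rule, 35.3% in all. With the fold threshold of the study added (a log2 fold change of 1 or more in size), *Elmo1* and *Cd36* were left, both lower, beside 12.0% of all tested genes (6.56% lower and 5.44% higher). The normalised counts of the genotypes did not overlap for the same 5 genes that passed the test, while 52.4% of all tested genes did not overlap, 26.1% with the knockout below and 26.3% with it above. The median log2 fold change of the 10 genes was -0.12, as compared with 0.00 over all tested genes.

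**Figure D1:**
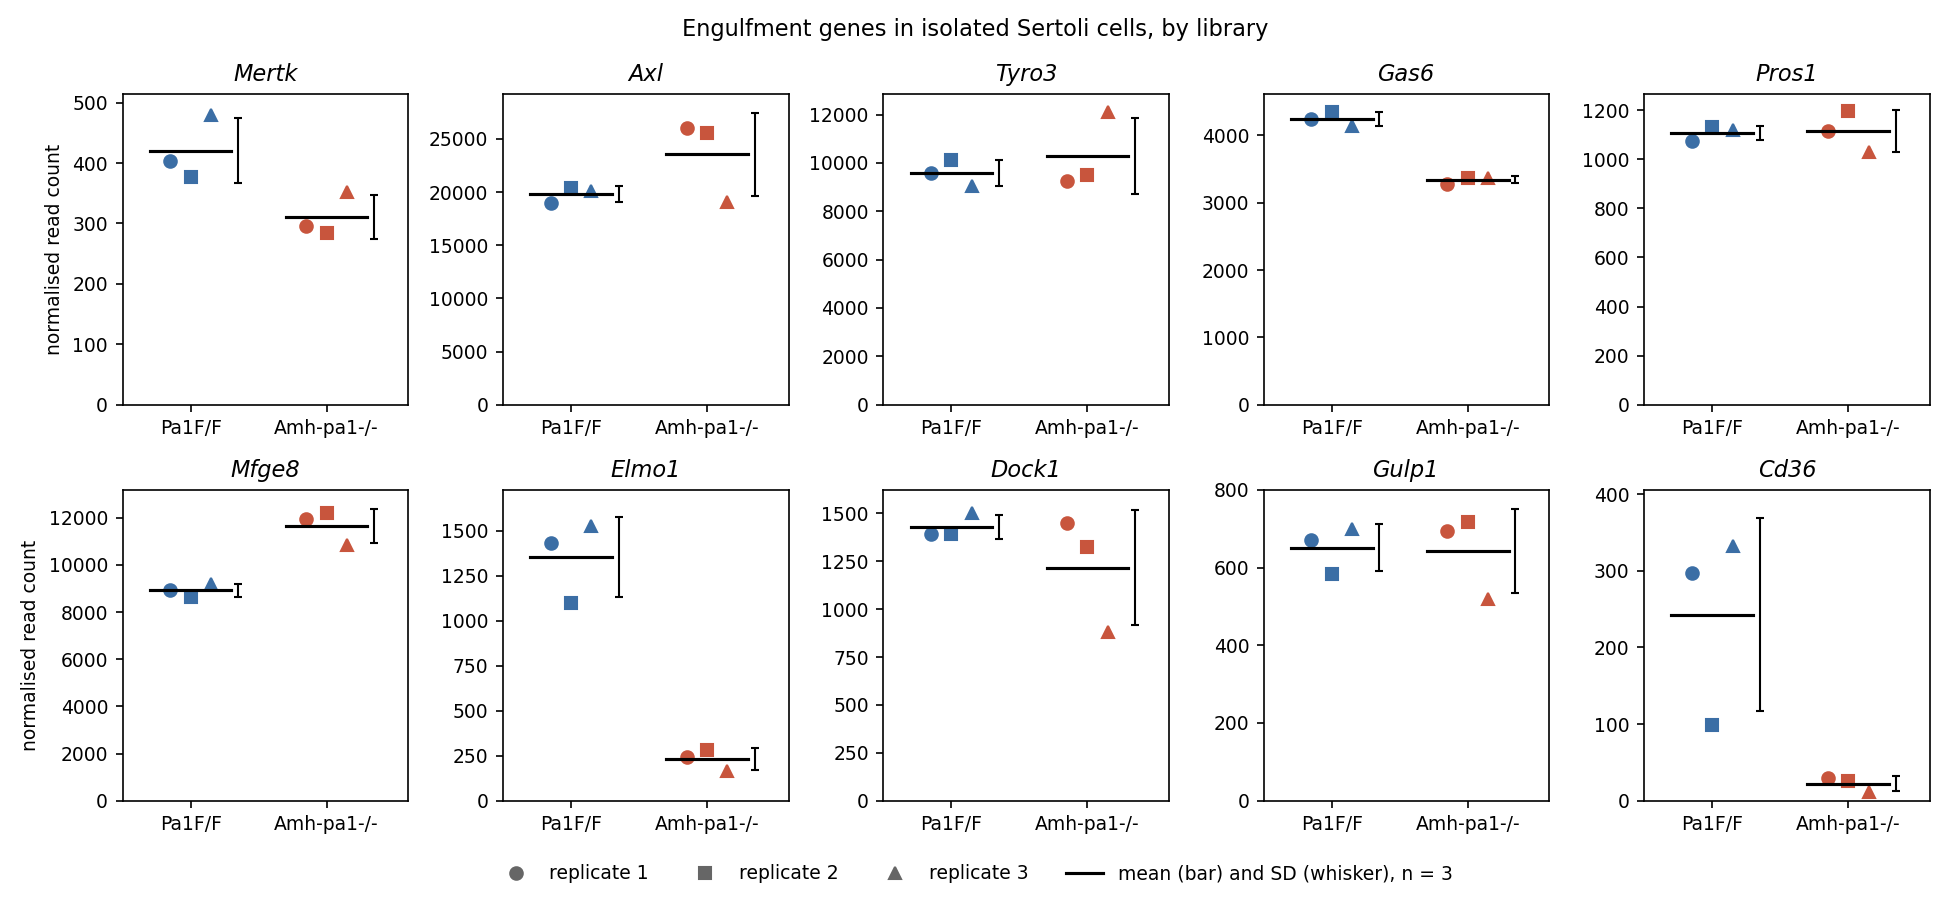
Normalised read counts of the 10 engulfment genes in each library (vertical axes from 0, 1 panel per gene), for 3 Pa1F/F libraries in blue and 3 Amh-pa1-/- libraries in red. Bars are means and whiskers the SD (n = 3), and the genotypes are apart for *Mertk*, *Gas6*, *Mfge8*, *Elmo1* and *Cd36* and overlap for the other genes.

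**Figure D2:**
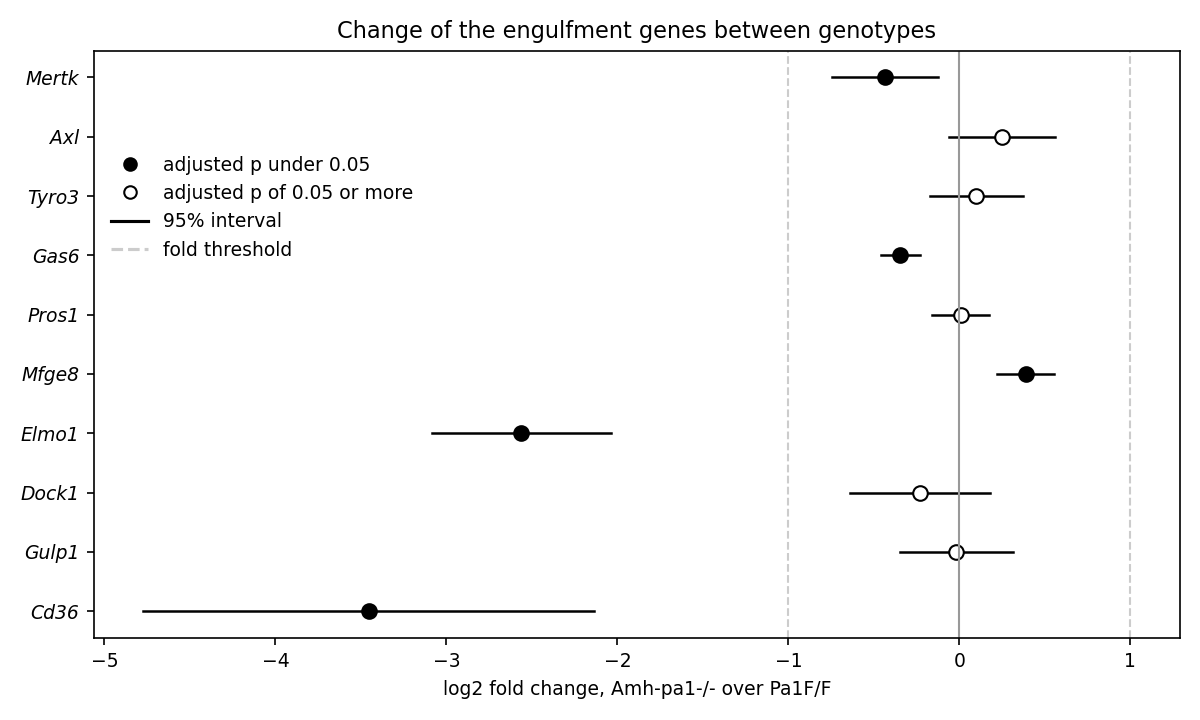
Log2 fold change (Amh-pa1-/- over Pa1F/F) of each engulfment gene with its 95% interval from the edgeR fit, with filled points for an adjusted p under 0.05 and dashed lines at the fold threshold of 1. *Cd36* at -3.45 and *Elmo1* at -2.56 lie beyond the threshold and the other 8 genes lie within it.

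*Elmo1* (ENSMUSG00000041112, GRCm38 chromosome 13, from 20090596 to 20608353, plus strand) encodes the regulatory subunit of the ELMO1-DOCK1 exchange factor. Its normalised counts were 1431, 1101 and 1527 in Pa1F/F replicates 1, 2 and 3, against 242, 283 and 163 in Amh-pa1-/- replicates 1, 2 and 3. Every knockout library lay far below every control library, at 17.0% of the control mean. The log2 fold change was -2.56 (95% interval from -3.08 to -2.04, adjusted p = 0.000451 in edgeR's test). In bulk RNA, fewer cells of a type and less RNA per cell cannot be told apart, here as for the genes below. The 3 other transcripts annotated within *Elmo1* on the same strand had at most 3 counts in any library.

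*Dock1* (ENSMUSG00000058325, chromosome 7, from 134670654 to 135173639), the catalytic partner of *Elmo1*, did not pass the test. It had 1393, 1395 and 1500 normalised counts in Pa1F/F cells, against 1448, 1325 and 881 in Amh-pa1-/- cells. Knockout replicate 3 was the lowest library by far, and the other two knockout replicates lay among or near the controls. Its log2 fold change was -0.23 (95% interval from -0.64 to 0.18, adjusted p = 0.336 in edgeR's test), and -0.04 without knockout replicate 3. *Gulp1* (ENSMUSG00000056870, chromosome 1, from 44551511 to 44796838) had 671, 583 and 699.6 normalised counts in Pa1F/F cells, against 694, 716 and 519 in Amh-pa1-/- cells, again lowest in knockout replicate 3. The genotypes overlapped, with a log2 fold change of -0.02 (95% interval from -0.35 to 0.31, adjusted p = 0.932 in edgeR's test), and of 0.12 without knockout replicate 3 (edgeR, adjusted p = 0.342).

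The ratio of *Elmo1* to *Dock1* reads within a library does not depend on the normalisation. It was 1.03, 0.789 and 1.02 in Pa1F/F replicates 1, 2 and 3, against 0.167, 0.213 and 0.185 in Amh-pa1-/- replicates 1, 2 and 3. In control cells both partners were read about equally often, and in knockout cells *Dock1* was read several times as often as *Elmo1*. The log2 ratio differed by -2.32 between the genotypes (exact two-sided permutation test, p = 0.1, which is the smallest p that 3 against 3 libraries can give, and 0.167 adjusted over the 5 ratios tested).

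The tested genes whose profile over the 6 libraries was most like that of *Elmo1*, by the root mean square distance of log2 CPM values centred on their mean, were *Mamdc2* (0.153), *Pcsk6* (0.163) and *Gcnt1* (0.189), among 11717 genes with a mean of at least 50 normalised counts. *Mamdc2* had 757, 668 and 866 normalised counts in Pa1F/F cells, against 171, 172 and 114 in Amh-pa1-/- cells. As for *Elmo1*, control replicate 2 was the lowest control and knockout replicate 3 the lowest knockout library. Of the other engulfment genes *Cd36* stood closest to *Elmo1*, at rank 146 with a distance of 0.549, and *Mertk* came next at rank 1844.

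*Cd36* (ENSMUSG00000002944, chromosome 5, from 17781690 to 17888801, minus strand) fell to 9.09% of the control mean. It had 297, 98.8 and 332 normalised counts in Pa1F/F replicates 1, 2 and 3, against 29.3, 25.9 and 11.02 in Amh-pa1-/- replicates 1, 2 and 3. Control replicate 2 was far below the other controls, yet all knockout libraries lay below it. The log2 fold change was -3.45 (95% interval from -4.77 to -2.14, adjusted p = 0.00416 in edgeR's test), and -3.83 without control replicate 2 (edgeR, adjusted p = 0.00129). These knockout values rest on 30, 23 and 11 reads. With the close pairs of replicates summed, which leaves 2 libraries per genotype, *Cd36* was not past the threshold (edgeR, adjusted p = 0.0651), whereas *Elmo1* was (edgeR, adjusted p = 0.0249).

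The windows around the annotated start sites of these 2 genes, which fell most, are printed from RefSeq (GRCm38.p6), from 250 bases before to 50 bases after the start. The *Cd36* window lies inside the counted gene, away from its 5′ end at 17888801, so its values cover only that start. RefSeq gives *Elmo1* 2 starts, and counts per gene do not tell their transcripts apart. Each sequence runs 5′ to 3′ along the strand of its gene, and capitals mark CpG dinucleotides.
Elmo1, first start, chr13:20090257-20090556, plus strand: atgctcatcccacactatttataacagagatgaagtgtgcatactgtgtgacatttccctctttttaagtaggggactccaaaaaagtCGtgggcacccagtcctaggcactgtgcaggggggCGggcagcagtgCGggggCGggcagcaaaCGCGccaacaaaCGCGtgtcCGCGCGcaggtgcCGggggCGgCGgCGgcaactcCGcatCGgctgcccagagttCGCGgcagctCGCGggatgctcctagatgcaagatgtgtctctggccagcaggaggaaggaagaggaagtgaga
Elmo1, second start, chr13:20472740-20473039, plus strand: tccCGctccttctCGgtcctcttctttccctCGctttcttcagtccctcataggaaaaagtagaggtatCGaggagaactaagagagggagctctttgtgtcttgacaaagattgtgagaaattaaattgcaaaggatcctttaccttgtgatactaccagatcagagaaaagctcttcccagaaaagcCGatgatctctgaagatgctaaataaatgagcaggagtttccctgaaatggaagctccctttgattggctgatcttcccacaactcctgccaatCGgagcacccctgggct
Cd36, chr5:17835847-17836146, minus strand: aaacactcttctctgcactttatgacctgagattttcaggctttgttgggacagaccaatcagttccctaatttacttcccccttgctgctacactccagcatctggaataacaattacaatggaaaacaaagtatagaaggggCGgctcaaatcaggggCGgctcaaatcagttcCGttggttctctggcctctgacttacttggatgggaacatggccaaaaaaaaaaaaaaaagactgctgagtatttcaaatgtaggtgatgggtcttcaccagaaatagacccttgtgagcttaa
The first *Elmo1* window held 21 CpG dinucleotides, the second 6 and the *Cd36* window 3, as compared with a median of 7 over 32851 RefSeq windows of the same length (quartiles 3 and 20). The AP-1 motif TGANTCA, which reads the same on both strands and was searched because the study asked about JUN, an AP-1 protein, stood in none of the 11 windows of the 10 genes and in 7.81% of all windows. These letters were thus not in these windows, which leaves other regions unsearched.

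Of the TAM receptors, *Mertk* fell while *Axl* and *Tyro3* did not pass the test. *Mertk* (ENSMUSG00000014361, chromosome 2, from 128698956 to 128802894) had 403, 378 and 480.4 normalised counts in Pa1F/F cells, against 296, 284 and 353 in Amh-pa1-/- cells. The genotypes did not overlap, but the highest knockout library and the lowest control library were close. The log2 fold change was -0.43 (95% interval from -0.75 to -0.12, adjusted p = 0.0404 in edgeR's test). The call was lost when control replicate 1 or 3 or knockout replicate 1 or 2 was left out (edgeR, adjusted p = 0.0897, 0.120, 0.117 and 0.132), and in 7 of 14 alternative settings that test for any change.

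*Axl* (ENSMUSG00000002602, chromosome 7, from 25757273 to 25788705) had 18939, 20422 and 20087 normalised counts in Pa1F/F cells, against 26046, 25560 and 19054 in Amh-pa1-/- cells. Knockout replicates 1 and 2 lay above all controls, and knockout replicate 3 lay within the control range. With all libraries the log2 fold change was 0.25 (95% interval from -0.06 to 0.56, adjusted p = 0.182 in edgeR's test). Without knockout replicate 3 it was 0.38 and past the threshold (edgeR, adjusted p = 0.00162). *Tyro3* (ENSMUSG00000027298, chromosome 2, from 119797733 to 119818104), the TAM receptor best known from the nervous system, had 9595, 10134 and 9047 normalised counts in Pa1F/F cells, against 9255, 9496 and 12092 in Amh-pa1-/- cells. Here knockout replicate 3 was the highest library and the other two fell within the control range. The log2 fold change was 0.10 (95% interval from -0.17 to 0.37, adjusted p = 0.537 in edgeR's test), and -0.03 without knockout replicate 3.

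Knockout replicate 3 therefore differed from its partners in opposite directions for these 2 receptors. The ratio of *Axl* to *Tyro3* reads was 1.97, 2.02 and 2.22 in Pa1F/F cells, against 2.81, 2.69 and 1.58 in Amh-pa1-/- replicates 1, 2 and 3. The mean log2 ratios differed by 0.14 (exact permutation test, p = 0.7). Without knockout replicate 3 they differed by 0.41 (exact permutation test, p = 0.2, which is the smallest p that 3 against 2 libraries can give). The ratio of *Tyro3* to *Mertk* reads was 23.8, 26.8 and 18.8 in Pa1F/F cells, against 31.3, 33.4 and 34.3 in Amh-pa1-/- cells. Those ranges did not overlap, and the log2 ratios differed by 0.53 (exact permutation test, p = 0.1, adjusted p = 0.167). The ratio of *Axl* to *Mertk* reads was between 41.8 and 54.1 in Pa1F/F cells and 88.1 and 90.04 in knockout replicates 1 and 2, and stood at 54.02 in knockout replicate 3 (exact permutation test, p = 0.2, adjusted p = 0.25).

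**Figure D3:**
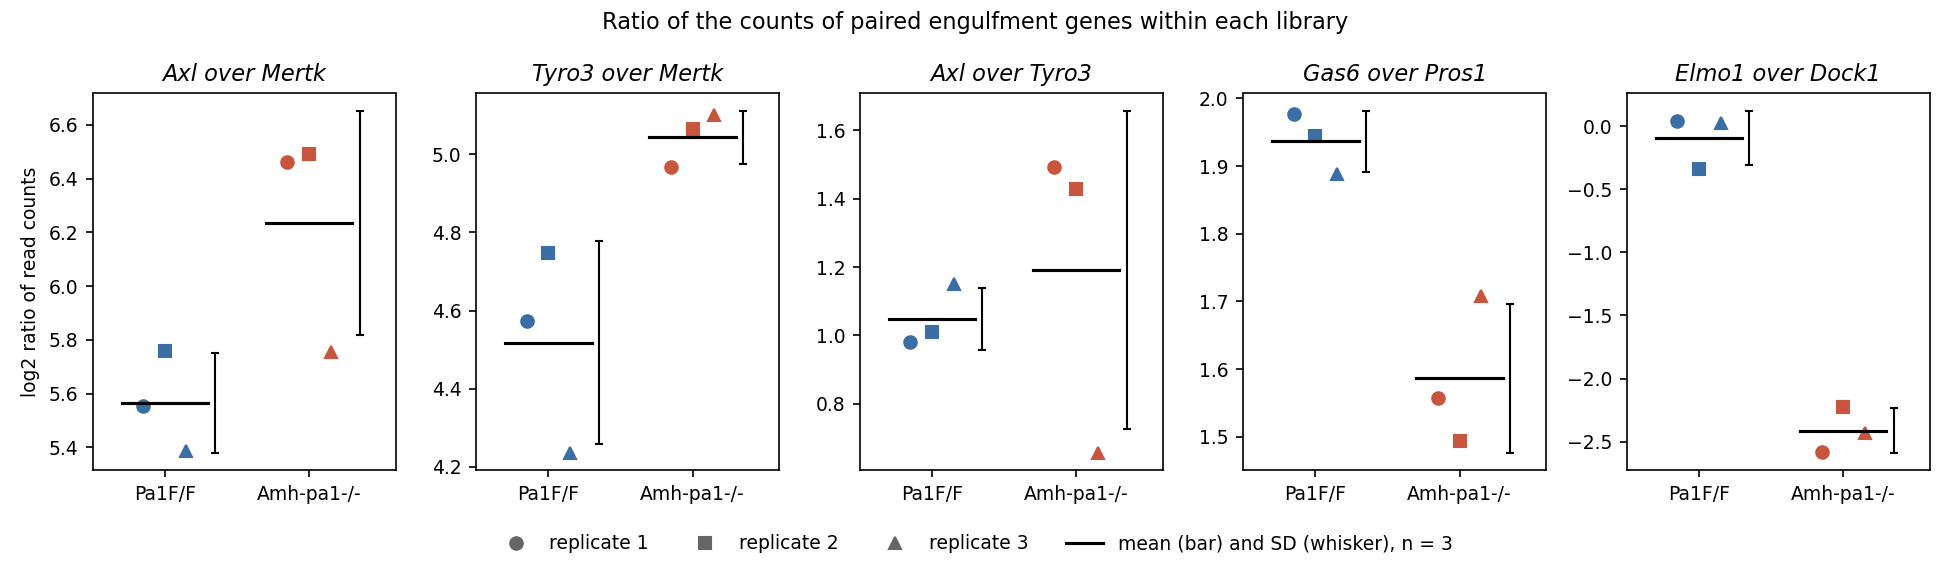
Log2 ratio of the read counts of 5 pairs of engulfment genes within each library (vertical axes differ between panels), with the mean and SD of 3 libraries per genotype. *Elmo1* over *Dock1* shifts by -2.32, *Tyro3* over *Mertk* and *Gas6* over *Pros1* separate the genotypes by less, and *Axl* over *Mertk* and *Axl* over *Tyro3* have ranges that overlap, with Amh-pa1-/- replicate 3 the lowest knockout library.

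Of the TAM ligands, *Gas6* fell and *Pros1* did not pass the test. *Gas6* (ENSMUSG00000031451, chromosome 8, from 13465374 to 13494490), which binds all TAM receptors, had 4239, 4350.3 and 4147 normalised counts in Pa1F/F cells, against 3286, 3375 and 3366 in Amh-pa1-/- cells. Replicates were tight in both genotypes, and all knockout libraries lay below all controls, at 78.7% of the control mean. The log2 fold change was -0.35 (95% interval from -0.46 to -0.23, adjusted p = 0.00252 in edgeR's test). *Pros1* (ENSMUSG00000022912, chromosome 16, from 62854307 to 62929346), which encodes protein S, a ligand of TYRO3 and MERTK, had 1077, 1129.9 and 1120.1 normalised counts in Pa1F/F cells, against 1117, 1199 and 1030.0 in Amh-pa1-/- cells. The genotypes overlapped, and the log2 fold change was 0.01 (95% interval from -0.16 to 0.18, adjusted p = 0.941 in edgeR's test). The ratio of *Gas6* to *Pros1* reads went from 3.94, 3.85 and 3.70 in Pa1F/F cells to 2.94, 2.82 and 3.27 in Amh-pa1-/- cells, a log2 difference of -0.35 (exact permutation test, p = 0.1, adjusted p = 0.167).

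*Mfge8* (ENSMUSG00000030605, chromosome 7, from 79133768 to 79149060), the bridge between phosphatidylserine and alpha v integrins, was the engulfment gene that rose. It had 8930.1, 8646 and 9182 normalised counts in Pa1F/F cells, against 11934, 12216 and 10858 in Amh-pa1-/- cells. All knockout libraries lay above all controls, at 131% of the control mean. The log2 fold change was 0.39 (95% interval from 0.22 to 0.55, adjusted p = 0.00651 in edgeR's test). *Mfge8* and *Gas6* kept their call without any one library, and both lost it with the close pairs of replicates summed (edgeR, adjusted p = 0.0990 and 0.0762).

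Levels were compared between genes as CPM per kilobase of the canonical transcript. In Pa1F/F cells *Mfge8* (299 ± 8.97) and *Axl* (290.1 ± 11.4, SD, n = 3 each) stood highest, with ranges that overlapped. *Tyro3* (157 ± 8.92), *Gas6* (100.1 ± 2.40) and *Pros1* (21.4 ± 0.549) followed, each apart from its neighbours in every library. *Elmo1* (15.8 ± 2.61), *Dock1* (14.2 ± 0.606) and *Gulp1* (13.8 ± 1.29) overlapped, and *Mertk* (6.14 ± 0.781) and *Cd36* (4.71 ± 2.44) were lowest and overlapped too. In Amh-pa1-/- cells *Elmo1* stood at 2.68 ± 0.709 (SD, n = 3), below *Mertk* at 4.54 ± 0.537, and *Cd36* stood at 0.428 ± 0.188. *Mertk* thus made up between 1.17% and 1.56% of the TAM receptor level per length in control libraries and between 0.776% and 1.07% in knockout libraries. With the length of all annotated exons in place of the canonical transcript, *Axl* came before *Mfge8*, *Dock1* before *Elmo1* and *Mertk* before *Gulp1* in control cells. The share of *Mertk* was then between 2.06% and 2.74% in control and between 1.38% and 1.85% in knockout libraries, a reading added after seeing the data.

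Other genes of the engulfment pathway were followed in 5 lists of 83 genes, of which 81 were in the table and 73 passed the filter on low counts. At an adjusted p-value under 0.05, 23 of them fell and 12 rose in knockout cells, 47.9% of those tested beside 35.3% of all tested genes. The largest share was among other recognition receptors, with 10 lower and 2 higher of 14 tested (median log2 fold change -0.74), while 7 of that list were not tested. *Stab1* and *Msr1*, among the 10 lower, passed the filter on low counts only through the control libraries, so the filter favoured a lower level in them. With at least 10 counts asked of every library, 8 of these receptors were lower and 2 higher, and 21 pathway genes were lower and 12 higher. That fit called 4765 of 13301 genes in all. With the close pairs of replicates summed, 10 pathway genes were lower and 2 were higher, and 5 of the recognition receptors were lower and none was higher. That fit called 1382 of 15966 genes in all, as compared with 5266 of 14919 when all libraries were kept apart.

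**Figure D4:**
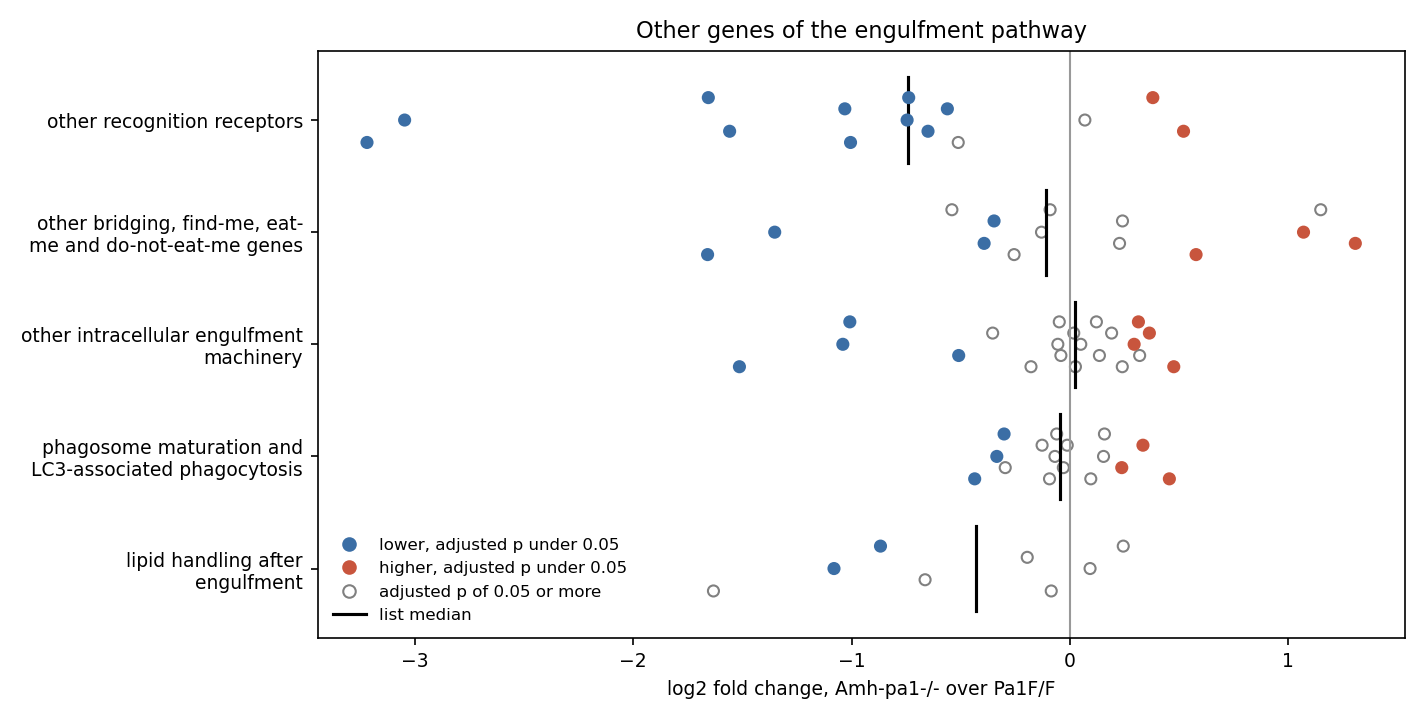
Log2 fold change (Amh-pa1-/- over Pa1F/F) of each tested gene in the 5 pathway lists, 1 point per gene, with list medians as bars and genes past the test filled in blue (lower) or red (higher). Recognition receptors lie mostly to the left of 0, with a median of -0.74, and phagosome genes lie close to 0, with a median of -0.05. The recognition receptors *Stab1* and *Msr1* passed the filter on low counts only through the Pa1F/F libraries.

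Among recognition receptors, *Megf10*, a receptor best known from glial cells that engulf, had 1813, 2002 and 1853 normalised counts in Pa1F/F cells, against 666, 612 and 646 in Amh-pa1-/- cells. It fell in every knockout library to 33.9% of the control mean, and the log2 fold change was -1.56 (SE 0.07, edgeR, adjusted p = 5.24e-05). *Havcr2*, which encodes the phosphatidylserine receptor TIM-3, fell from 112 ± 20.2 to 35.5 ± 11.8 normalised counts (SD, n = 3 each, log2 fold change -1.66, edgeR, adjusted p = 0.00522), and lost its call with the close pairs of replicates summed (edgeR, adjusted p = 0.0604). *Stab1* and *Msr1*, scavenger receptors best known from macrophages and sinusoidal endothelium, rested on few reads, with between 29 and 66 and with 24 counts in each control library, as compared with between 2 and 6 and with 0, 0 and 7 counts in knockout replicates 1, 2 and 3. Both passed the test (edgeR, adjusted p = 0.00585 and 0.0234), but both had passed the filter on low counts only through the control libraries, and neither was tested with at least 10 counts asked of every library. For *Stab1* the log2 fold change was -3.05, and -2.57 without control replicate 2, its highest library (edgeR, adjusted p = 0.0116). *Msr1* did not pass without control replicate 1, 2 or 3 or knockout replicate 1 or 2 (edgeR, adjusted p between 0.0528 and 0.0727), nor with the replicate number as a block (edgeR, adjusted p = 0.0532), and all 7 of its knockout reads came from knockout replicate 3.

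The integrin chains that serve as MFG-E8 receptors moved in different directions. *Itgb3* fell from 452 ± 41.7 to 221 ± 43.4 normalised counts (SD, n = 3 each, log2 fold change -1.03, edgeR, adjusted p = 0.00363). *Itgb5*, the partner chain with far more reads, fell from 10303 ± 332 to 5134 ± 694 (log2 fold change -1.005, edgeR, adjusted p = 0.000876). *Itgav*, the alpha v chain shared by both, rose from 5461 ± 114 to 7104 ± 369 (log2 fold change 0.38, edgeR, adjusted p = 0.00415), by nearly the factor of *Mfge8*. *Lrp1*, the receptor whose tail GULP1 binds, fell from 19250.3 ± 1011 to 11537 ± 599.8 normalised counts (log2 fold change -0.74, edgeR, adjusted p = 0.000875). *Itgb5*, *Itgav* and *Lrp1* were picked for their link to members after their values were seen.

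Among other bridging and signal genes 4 were lower and 3 were higher of 14 tested, or 50% called beside 35.3% of all tested genes. With the close pairs of replicates summed, 1 was lower and 1 higher, in a fit that called 1382 of 15966 genes in all. *Xkr8*, a scramblase that exposes phosphatidylserine, fell to 39.2% of the control mean (log2 fold change -1.35, edgeR, adjusted p = 0.000805), and *Sirpa*, the receptor for the do-not-eat-me signal CD47, fell to 31.6% (log2 fold change -1.66, edgeR, adjusted p = 0.00392). *Sirpa* lost its call with the close pairs of replicates summed (edgeR, adjusted p = 0.0538). *Adam10*, a surface protease, rose from 5205 ± 401 to 12878 ± 2954 normalised counts (SD, n = 3 each, log2 fold change 1.31, edgeR, adjusted p = 0.00208). *Thbs1*, which encodes thrombospondin, a ligand of CD36 and of alpha v integrins, had 11093, 7814 and 12889 normalised counts in Pa1F/F cells, against 19063, 18505 and 29165 in Amh-pa1-/- cells. It rose while *Cd36* fell (log2 fold change 1.07, edgeR, adjusted p = 0.0147), and missed the threshold without control replicate 1 (edgeR, adjusted p = 0.0518) and with the close pairs of replicates summed (edgeR, adjusted p = 0.0746).

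In the intracellular machinery 4 genes were lower and 4 higher of 21 tested, a share of 38.1% called that was near the 35.3% of all tested genes. *Vav3*, an exchange factor for RAC1, fell to 34.8% of the control mean (log2 fold change -1.51, edgeR, adjusted p = 0.00386). *Dock4* and *Dock3*, relatives of *Dock1*, fell to 48.6% and 49.7% (edgeR, adjusted p = 0.00165 and 0.00517). With the close pairs of replicates summed *Dock4* kept its call and *Dock3* did not (edgeR, adjusted p = 0.0416 and 0.0654). In that fit 2 machinery genes were lower and 1 higher, and 1382 of 15966 genes were called in all. *Elmo2*, the closest relative of *Elmo1* in the list, and the RAC1 pathway genes *Crk*, *Rac1* and *Ptk2* were the 4 that rose, by log2 fold changes of 0.29, 0.48, 0.31 and 0.36. They are named after their values were seen, as are the next genes. The phagosome list had 3 lower (*Atg16l1*, *Map1lc3a* and *Map1lc3b*) and 3 higher (*Becn1*, *Uvrag* and *Mon1b*) of 16 tested, or 37.5% called, all within a log2 fold change of 0.46 in size. Without control replicate 1 or 3 or knockout replicate 1, or with the replicate number as a block, 1 phagosome gene was higher. None was lower or higher in edgeR's test with the close pairs of replicates summed, which called 1382 of 15966 genes in all.

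Among genes of lipid handling after engulfment 2 of 8 were lower and none was higher by edgeR's test, a share of 25% called. Over all tested genes the share was 35.3%, with 17.1% lower and 18.2% higher. Without knockout replicate 3, with library size alone or with no filter beyond 1 count, 1 was higher. The transporter *Abca7* fell to 47.3% of the control mean (log2 fold change -1.08, edgeR, adjusted p = 0.000888). *Abca1*, which exports the cholesterol taken up with the engulfed cell, fell from 13176 ± 206 to 7220.5 ± 109 normalised counts (SD, n = 3 each, log2 fold change -0.87, edgeR, adjusted p = 0.000177) and was named after its values were seen. *Pparg*, a lipid-activated nuclear receptor known to induce *Cd36*, had 39.0, 10.7 and 44.05 normalised counts in Pa1F/F replicates 1, 2 and 3, against 14.6, 11.3 and 4.01 in Amh-pa1-/- replicates 1, 2 and 3. As for *Cd36*, control replicate 2 was the lowest control and knockout replicate 3 the lowest library of all. The genotypes overlapped and *Pparg* did not pass the test (log2 fold change -1.63, edgeR, adjusted p = 0.0864). *Pparg* was likewise picked after its values were seen.

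*Cd36*, *Mertk*, *Stab1*, *Msr1* and *Havcr2* are also made by macrophages, and *Cd36* by endothelial cells, so markers of other testicular cells were read in the same libraries. Of 16 macrophage markers 11 were tested, and 9 fell and none rose in knockout cells by edgeR's test at an adjusted p under 0.05, beside 17.1% of all tested genes that were lower and 18.2% that were higher. Of these 9, *Adgre1*, *Ptprc*, *C1qc*, *Itgam* and *Tyrobp* passed the filter on low counts only through the control libraries, where they were high. *Csf1r*, with 11, 8 and 13 counts in Amh-pa1-/- replicates 1, 2 and 3, would likewise not have passed on the knockout libraries alone. The filter thus favoured a lower level in these genes, and the count is a description. The summed level of all 16 macrophage markers was between 132 and 144 CPM in control and between 77.5 and 95.2 CPM in knockout libraries. *Mrc1* took up most of the knockout sum, and without it, a sum chosen after seeing the data, the ranges were 64.6 to 77.1 and 11.9 to 14.2 CPM. No macrophage marker was at 0 in all libraries. *Adgre1*, the F4/80 antigen, had 26, 64 and 14 counts in Pa1F/F replicates 1, 2 and 3 and 3, 4 and 2 counts in Amh-pa1-/- replicates. Among the controls *Adgre1* was highest in replicate 2, where *Cd36* was lowest, and *C1qa* was lowest there, with 40, 9 and 38 counts. The part of macrophages in the change of *Cd36*, *Mertk* and these receptors was not tested.

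**Figure D5:**
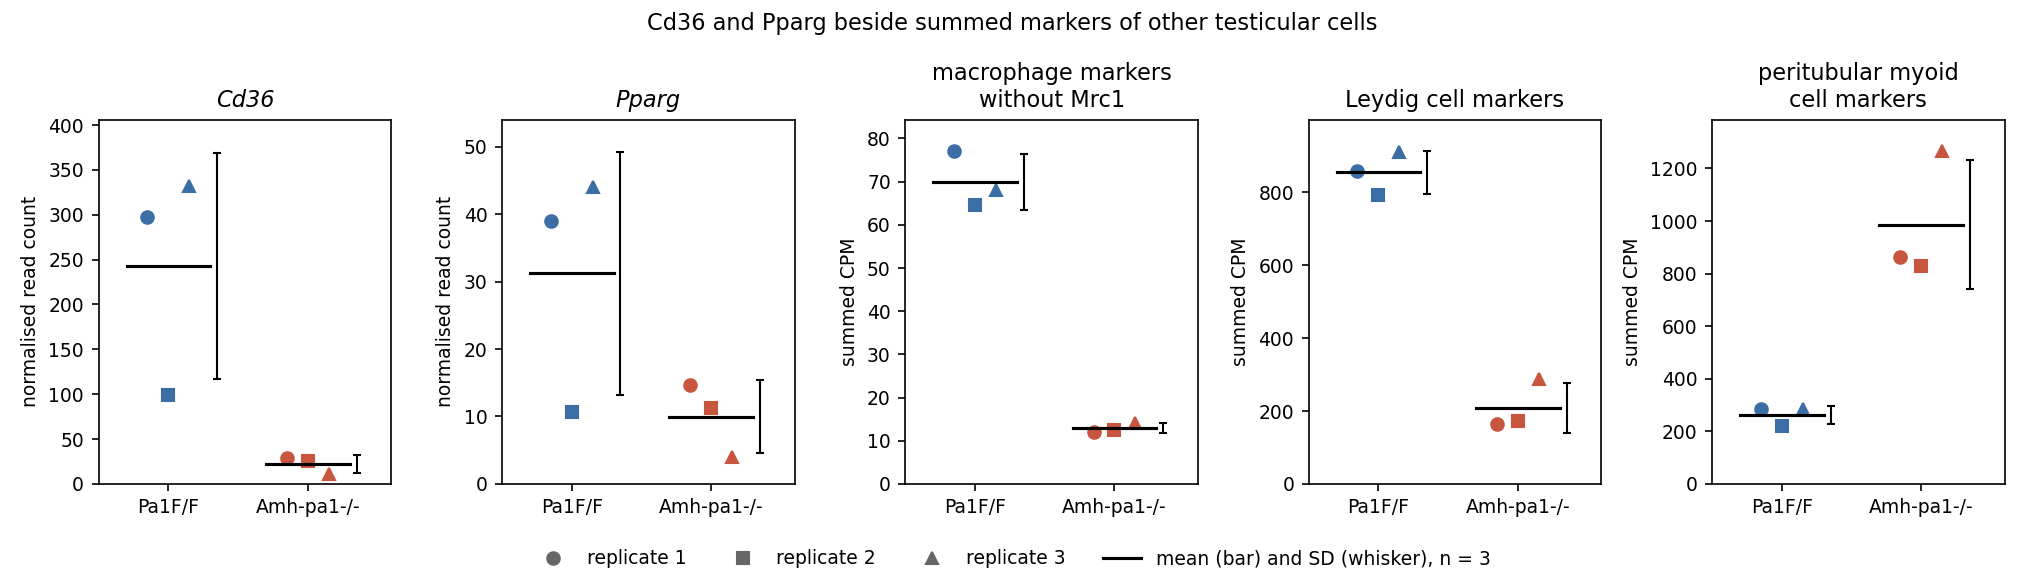
Normalised read counts of *Cd36* and *Pparg*, and summed CPM of macrophage (without *Mrc1*), Leydig cell and peritubular myoid cell markers, in each of the 3 Pa1F/F and 3 Amh-pa1-/- libraries, with mean and SD (vertical axes from 0). Control replicate 2 is low for *Cd36* and *Pparg* but lies near the other controls for the summed macrophage markers, and Amh-pa1-/- replicate 3 is highest for the myoid markers, whose sum is mostly *Acta2*.

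The counts of called markers given next stand beside 17.1% of all tested genes that were lower and 18.2% that were higher. Endothelial markers summed to between 135 and 148 CPM in control and between 78.7 and 122 CPM in knockout libraries, with 2 lower (*Pecam1* and *Cdh5*) and 1 higher (*Vwf*) of 5 tested. *Cdh5* made up most of that sum, and without it the ranges overlapped, at 26.7 to 39.3 CPM in control and 22.3 to 55.8 CPM in knockout libraries. *Vwf* had 8, 10 and 2 counts in Pa1F/F and 26, 16 and 17 in Amh-pa1-/- replicates 1, 2 and 3. It passed the filter on low counts only through the knockout libraries, so the filter favoured a higher level in it. The endothelial genes *Cldn5* and *Emcn* were at 0 in 5 and in 4 of the 6 libraries, with at most 3 counts. Leydig cell markers summed to between 794 and 911 CPM in control and between 165 and 288 CPM in knockout libraries, and all 3 tested were lower, while *Cyp17a1* and *Insl3* had at most 3 counts in any library. Peritubular myoid markers summed to between 222 and 283 CPM in control libraries and to 862, 828 and 1268 CPM in knockout replicates 1, 2 and 3, with 1 higher (*Acta2*) of 5 tested. *Acta2* made up most of that sum, and without it the markers summed to between 49.4 and 70.3 CPM in control libraries and to 24.96, 19.9 and 221 CPM in knockout replicates 1, 2 and 3, so that replicates 1 and 2 were below the controls and replicate 3 above them. *Des* had 45, 41 and 484 counts in these knockout libraries, so that knockout replicate 3 stood out where *Axl*, *Tyro3*, *Dock1* and *Gulp1* also departed from their partners. Markers of other cells departed in that library too. The Sertoli cell markers *Amh* and *Gata1* had 45, 43 and 364 and 579, 519 and 246 counts in knockout replicates 1, 2 and 3, and the endothelial marker *Kdr* had 82, 66 and 484. Germ cell markers summed to between 1.79 and 7.43 CPM over all libraries, with 3 tested, of which *Ddx4* and *Kit* were lower and had passed the filter only through the control libraries. Of 13 tested Sertoli cell markers 5 were lower and none was higher, a share of 38.5% called beside 35.3% of all tested genes. These calls all went in 1 direction, while 17.1% of all tested genes were lower and 18.2% were higher. Their sum was between 17122 and 17434 CPM in control and between 10399 and 13228 CPM in knockout libraries, and without *Clu*, which made up most of it, between 4006 and 4234 and between 3211 and 3277 CPM. The sums without *Cdh5*, *Acta2* or *Clu* were chosen after seeing the data. The part of these cells in the changes was not tested.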

How the data were processed

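Isolated mouse Sertoli cells were measured by RNA-seq in 3 Pa1F/F and 3 Amh-pa1-/- libraries. Per the labels and the study's methods, the authors aligned reads to GRCm38 with HISAT2 2.1.0 and counted reads per gene with HTSeq 0.6.0, and deposited these counts as they were, not normalized. The strand setting is not given in the sources used here, and genes that overlap a member in the table had at most 20 counts in any library. The table also holds the authors' fold changes and p-values, which were not used.

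Counts were filtered with edgeR 4.0.16 (filterByExpr, minimum count 10, minimum total 15), scaled by TMM and compared by its quasi-likelihood test in R 4.3.3. Normalised counts are counts over the effective library size times its mean over libraries. P-values were adjusted over 14919 genes. Intervals are at 95% and come from the fit, which reads the spread between libraries. Ratios used exact two-sided permutation tests (scipy 1.17.1). Transcript lengths came from GENCODE M39, matched by Ensembl ID. The steps were tested on simulated counts. Named genes were all members, the 5 pathway genes per list with the largest absolute log2 fold change among those past both thresholds, and 3 genes most like *Elmo1*. Members and lists were chosen with earlier results of these data known. Alternatives were DESeq2 1.42.0 (its size factors and its test), limma 3.58.1 (voom), library size alone, a looser and a stricter filter, a replicate block, the close pairs of replicates summed, a null of up to 1 on the log2 scale and leaving out each library. Without molecular identifiers, floors cover counting error only.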

Additional observations from a re-analysis of the deposited data

How the results depend on the processing

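Depth (at least 13203757 counts per library) limited the genes with few reads, such as *Cd36* in Amh-pa1-/- cells and *Msr1*. Of the 10 engulfment genes, *Elmo1* passed the test under all 15 alternatives. With the close pairs of replicates summed, 1382 genes were called in place of 5266, and 883 in place of 1791 with the fold threshold, and 1 engulfment gene was lower and 0 higher, with 10 pathway genes lower and 2 higher. With 2 libraries per genotype fewer samples enter that test. In edgeR's test against a log2 fold change of 1, 538 genes were called under both rules, 2 engulfment genes were lower and 0 higher, and 1 pathway gene was lower and 0 higher. Without 1 replicate, called genes ranged from 3450 (without control replicate 1) to 6617, and from 1466 to 2076 with the fold threshold. Lower engulfment genes ranged from 3 to 4, higher ones from 1 to 2, lower pathway genes from 19 to 24 and higher ones from 9 to 16. 3 of the 5 engulfment genes that did not pass the test changed sign, while *Axl* and *Dock1* did not. *Tyro3* ranged from -0.0309 to 0.17, *Pros1* from -0.0312 to 0.0642 and *Gulp1* from -0.0935 to 0.117 in log2 fold change without 1 replicate, and the *Axl* over *Tyro3* difference from -0.00526 to 0.41. *Pros1* was -0.00466 with at least 10 counts in every library and -0.00838 with close pairs summed, and *Gulp1* was 0.00622 with no filter beyond 1 count. The cause was not tested. Another normalization moved the median of all genes by less than 0.1 on the log2 scale. Same-numbered libraries did not deviate together (r over genes 0.108, -0.164 and -0.179 for numbers 1, 2 and 3), so the numbers were not taken to pair them. With the replicate number as a block 3802 genes were called, or 1558 with the fold threshold, and 4 engulfment genes were lower and 1 was higher.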
